A study of Drosophila melanogaster with 2 samples.

Results

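The 10 genes described here belong to the response to the steroid hormone ecdysone: EcR, usp, Eip74EF, Eip75B, br, Hr3, Hr4, Hr39, ftz-f1 and ImpL2. They are called regulators below as a set, although ImpL2 is included as an ecdysone-inducible gene. They were taken by symbol from 13968 annotated protein-coding genes, by a rule that uses no measured value, though earlier results of these data were known when the list was made, and each was examined across its gene body and 10 kb on either side, which is called its window. Chromatin immunoprecipitation with sequencing (ChIP-seq) located a fusion of the CG1024 protein with enhanced green fluorescent protein (eGFP), through an anti-GFP antibody, in whole Drosophila melanogaster embryos aged 0 to 24 hours. There was 1 group of 2 biological replicates from transgenic CG1024-eGFP flies and no second condition. Both replicates carry the transgene, and the whole organism was used, so cell types and embryonic stages are mixed and a peak cannot be assigned to either. All 10 windows held at least 1 peak of the list that the submitters name conservative, made from both replicates, with 34 peaks in all. Such a peak was common, since 52.7% of all protein-coding genes had one, as did 69.6% of those with bodies of 50 kb or more, the class of 6 of the 10. The strongest lay within introns of Hr3, Hr4 and ImpL2 and at the promoter of a neighbour of usp. Only usp and Eip75B had a conservative summit within 500 bp of a start site of their own. That of Eip75B was the weakest of the 34 peaks. A stronger peak at the Hr39 start site was left out of the conservative list, as described below.

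Ecdysone acts through a heterodimer of the nuclear receptors EcR and USP, which binds DNA and switches target genes on when the hormone is present. The receptor first induces early genes that encode transcription factors, among them Eip74EF, Eip75B and br, and these together with the orphan receptors Hr3, Hr4, Hr39 and ftz-f1 time the later responses. In the embryo a mid-embryonic ecdysone pulse accompanies morphogenesis and cuticle formation, and larger pulses later drive moulting and metamorphosis. ImpL2 was named as an ecdysone-inducible gene, and it encodes a secreted protein that binds insulin-like peptides.

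A few sequences show what lay under these peaks, chosen as 5 peaks in introns or at a neighbouring promoter and 2 stretches at start sites of the regulators. They are not the strongest in order, since none is printed for EcR or for Hr3, although Hr3 peak 1 was the strongest of all 34, and Hr4 peak 3 is left out for brevity. Each is printed from 100 bp before to 100 bp after the summit on the forward strand of dm6, in lower case. Capitals mark CACTG, on either strand and so also as CAGTG, a 5-base word shared by longer sequences reported earlier for all peaks of this list. Peaks are numbered within each window from the highest signal down. The stretch of usp peak 1 spans chrX:2050179-2050379, Eip75B peak 1 chr3L:18029693-18029893, Hr4 peak 1 chrX:1947642-1947842, Hr4 peak 2 chrX:1963820-1964020 and ImpL2 peak 1 chr3L:4228282-4228482. Also shown are Eip75B peak 4, chr3L:18064982-18065182, upstream of a start site of Eip75B, and chr2L:21237054-21237249, the stretch just upstream of the Hr39 start site, cut at that site, where a ranked peak was left out of the thresholded lists. Of these 7 stretches, Hr4 peak 1 had no CACTG on either strand, Hr4 peak 2 had 2, and each of the others had 1.
usp peak 1: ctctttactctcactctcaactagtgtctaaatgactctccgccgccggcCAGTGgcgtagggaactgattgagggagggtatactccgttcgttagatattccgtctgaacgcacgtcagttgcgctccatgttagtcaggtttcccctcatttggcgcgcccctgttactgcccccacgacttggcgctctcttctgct
Eip75B peak 1: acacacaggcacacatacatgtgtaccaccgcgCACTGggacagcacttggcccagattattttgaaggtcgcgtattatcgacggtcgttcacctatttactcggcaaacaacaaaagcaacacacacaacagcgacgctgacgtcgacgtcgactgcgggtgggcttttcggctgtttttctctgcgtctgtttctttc
Eip75B peak 4: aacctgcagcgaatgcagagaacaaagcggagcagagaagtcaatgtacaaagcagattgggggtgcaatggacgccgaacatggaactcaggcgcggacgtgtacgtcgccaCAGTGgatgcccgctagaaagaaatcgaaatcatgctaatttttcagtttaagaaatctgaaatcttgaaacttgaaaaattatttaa
Hr4 peak 1: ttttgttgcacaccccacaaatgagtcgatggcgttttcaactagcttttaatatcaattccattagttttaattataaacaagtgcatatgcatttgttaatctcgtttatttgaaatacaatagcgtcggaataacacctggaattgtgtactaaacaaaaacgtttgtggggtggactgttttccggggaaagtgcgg
Hr4 peak 2: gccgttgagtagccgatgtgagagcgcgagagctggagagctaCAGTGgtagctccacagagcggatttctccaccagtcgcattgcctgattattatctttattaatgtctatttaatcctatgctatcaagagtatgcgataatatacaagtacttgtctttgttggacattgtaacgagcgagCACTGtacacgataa
ImpL2 peak 1: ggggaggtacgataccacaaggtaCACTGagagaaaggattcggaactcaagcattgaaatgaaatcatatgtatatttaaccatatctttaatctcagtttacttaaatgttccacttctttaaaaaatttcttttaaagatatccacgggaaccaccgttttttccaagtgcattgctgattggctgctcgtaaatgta
Hr39 start site: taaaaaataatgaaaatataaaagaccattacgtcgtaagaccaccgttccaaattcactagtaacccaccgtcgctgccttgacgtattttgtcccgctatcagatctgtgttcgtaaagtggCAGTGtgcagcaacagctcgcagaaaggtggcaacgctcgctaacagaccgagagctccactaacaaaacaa

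The word is common under all peaks of the list. CACTG was present within 100 bp of the summit on either strand in 22 of the 34 window peaks (64.7%, 95% Wilson interval 47.9 to 78.5), against 51.8% of the 3397 conservative peaks on the 7 chromosomes used, a value inside that interval. Among peaks more than 500 bp from any start site the shares were 65.2% of 23 window peaks and 55.2% of the list. The nuclear receptor binding word AGGTCA was found in 3 window peaks (8.82%, 3.05 to 23), EcR peak 2, usp peak 2 and Eip74EF peak 2, against 4.59% of the list. The longer site CAAGGTCA, of the type bound by Ftz-f1, was in none of the window peaks and in 0.265% of the list, and the EcR/USP palindrome was in none of either. TATCGATA, the word read by Dref and BEAF-32, was in 1 window peak, br peak 2 (2.94%, 0.521 to 14.9), against 4.27% of the list. The E-box CAGCTG was in 1 window peak against 9.10%, the GAGA factor word GAGAG in 6 (17.6%, 8.35 to 33.5) against 23.7%, and the Zelda word CAGGTA in 2 (5.88%, 1.63 to 19.1) against 3.77%. Each list share lay inside the interval of the window share, the E-box included (0.521 to 14.9). All words were searched on both strands. CAAGGTCA contains AGGTCA, and CAGCTG and TATCGATA read the same on both strands. Median GC content of these 201-bp stretches was 39.8% (28.9 to 54.7) over the window peaks and 36.3% over the list.

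The data are peak lists on build dm6: a thresholded and a ranked list for each replicate, and the same at series level for both together, where the thresholded lists come as a conservative set and as a second, larger set. Signal is a peak strength computed by the authors, on a scale that is not stated, so levels are compared here only within a list, and the values of the replicates are given side by side without comparing their size. The irreproducible discovery rate (IDR) estimates how likely a peak of a given strength is to fail to replicate, and the thresholded lists hold peaks at a global IDR of 0.01 or below. The conservative list held 3401 peaks, of which 3397 lay on the 7 chromosomes used, and the thresholded lists held 2599 peaks in replicate 1 and 2291 in replicate 2. The ranked lists are far longer, with 82795 and 108744 peaks. No list holds read counts, so the depth behind a peak is unknown, and the intervals given cover the counting of peaks or genes only. Per the deposited inventories, both replicates share 1 control.

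A peak somewhere in the window was common among genes of this organism. Of all 13968 protein-coding genes, 52.7% had a conservative peak in the same kind of window, against 10 of 10 here (95% Wilson interval 72.2 to 100). Gene length moves with this share, since it was 51.7% for gene bodies under 20 kb, 64.4% for 20 to 50 kb and 69.6% for 50 kb or more. Of the 10 genes, 6 belong to the longest class, Hr3 and Hr39 to the middle class and usp and ImpL2 to the shortest. In the thresholded list of replicate 1 alone, 8 of 10 windows held a peak against 44.4% of genes, and in that of replicate 2 alone 7 of 10 against 41.3%. Eip74EF and ftz-f1 had none in either replicate, and Hr39 had one in replicate 1 only. Per length of sequence, the 34 peaks in 734 kb gave 46.4 peaks per Mb (95% Poisson interval 32.1 to 64.8), against 27.2 over the union of all protein-coding windows. The same densities were 25.9 against 21 in replicate 1 and 27.3 against 18.1 in replicate 2. These genes were chosen by name and neighbouring peaks are not independent, so no test was made of these differences.

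The peaks were spread unevenly over the windows. Hr4 had 9 conservative peaks, a number reached by 6 of the 313 genes with bodies of 50 kb or more (1.92%, Hr4 included). ImpL2 had 5 and usp 4, reached by 1.12% and 3.09% of the 12948 genes under 20 kb. Hr3 had 3, reached by 19.9% of the 707 genes of 20 to 50 kb, and Eip75B had 4, reached by 22.4% of the longest class. EcR, Eip74EF, br and ftz-f1 had 2 each, the median of that class, reached by 50.2% of it. Hr39 had 1, reached by 64.4% of its class. Pooled by class, the rate was 3.61 peaks per 100 kb for the 6 longest windows against 1.73 for their class. It was 4.18 against 2.68 for Hr3 and Hr39, and 16.2 against 3.81 for usp and ImpL2. In these class rates a peak counts once for every gene window that holds it, unlike the densities per Mb over the union of windows.

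**Figure D1:**
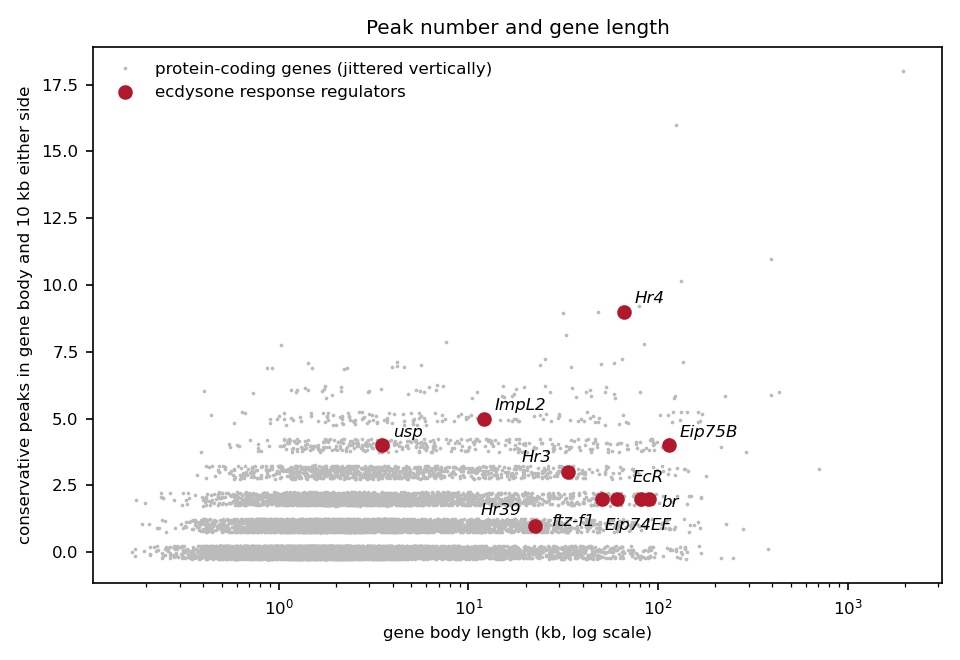
Number of conservative peaks in the gene body and 10 kb either side (y axis) against gene body length in kb on a log scale (x axis) for 13968 protein-coding genes (grey, jittered vertically) and the 10 regulators (red, labelled). Hr4 with 9 peaks, ImpL2 with 5 and usp with 4 sit high for their length, while EcR, Eip74EF, br and ftz-f1 with 2 each and Hr39 with 1 sit within the mass of genes.

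Most window peaks lay in introns, away from start sites. Of the 34 summits, 20 were intronic (58.8%, Wilson 42.2 to 73.6) against 32.0% of all conservative peaks, and 11 were within 500 bp of a start site (32.4%, 19.1 to 49.2) against 48.8%. The remaining 3 were in a 3' UTR, a non-coding exon and an intergenic stretch. By position in the window, 19 were in an intron of the regulator itself, 2 in an exon, 7 in the upstream flank and 6 in the downstream flank. The nearest annotated start site belonged to the regulator in 18 of 34 cases, counting sites shared with another gene, and 20 summits were more than 1000 bp from any start site. Of the 11 promoter summits, 3 were at a start site of the regulator and 8 at one of another gene. Windows around long genes hold more intron than an average stretch of genome, and the part of gene length in these shares was not tested.

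**Figure D2:**
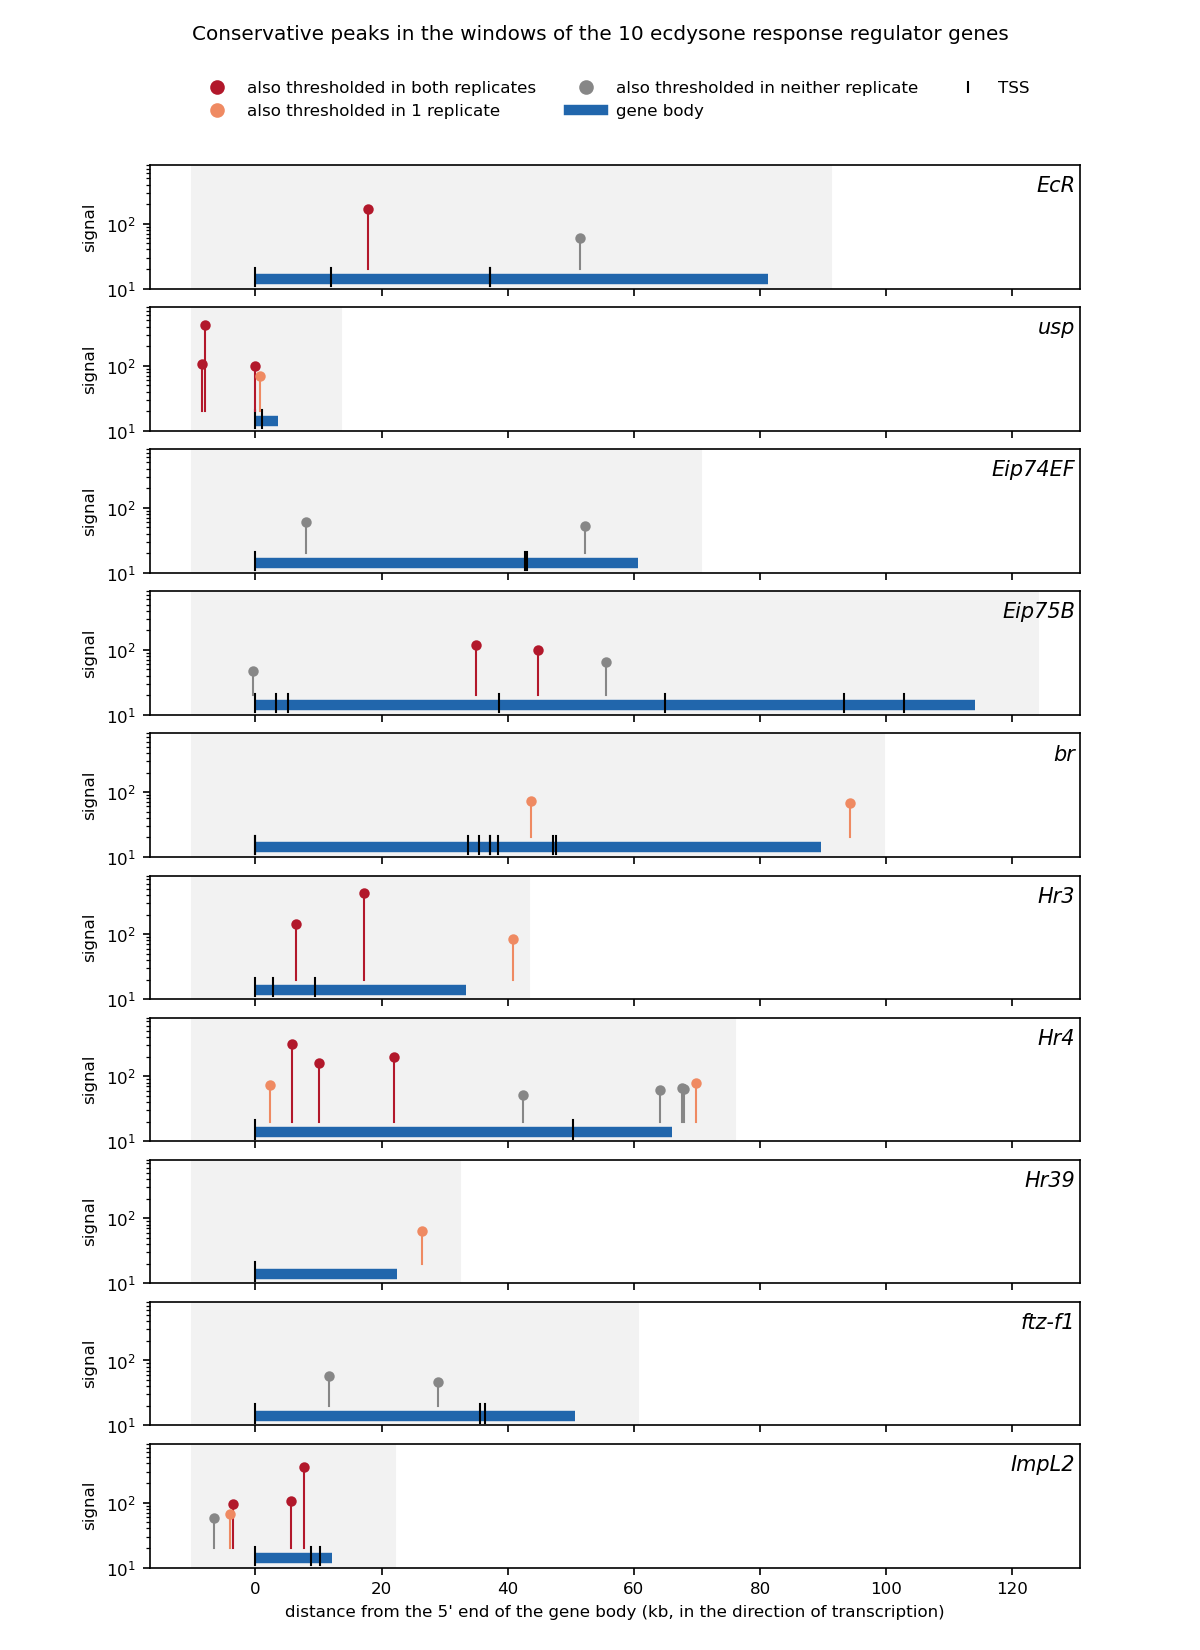
Conservative peaks in each window, placed by distance in kb from the 5' end of the gene body in the direction of transcription (x axis) and by signal on a log scale (y axis). Blue bars are gene bodies, black ticks start sites, grey shading the window, and colour shows whether the peak was also thresholded in both replicates, 1 or neither. The strongest peaks, from 317 to 433 in signal, sit inside Hr3, Hr4 and ImpL2 and upstream of usp.

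Both receptor subunits had peaks, and they differed in kind. EcR, the ecdysone-binding subunit (FBgn0000546, 2R, 6087873 to 6169087, minus strand), had 2 conservative peaks across 81.2 kb and 4 start sites. Its peak 1, with its summit at 6151313 in an intron and 5816 bp downstream of the start of EcR-RD and EcR-RE, had a signal of 168, rank 671 of the list, and the nearest start site was that of a tRNA gene 1363 bp away. The ranked lists gave that peak 78.0 in replicate 1 and 81.1 in replicate 2, and both thresholded lists kept it. Peak 2, at 6117625 in an intron 14216 bp downstream of EcR-RG, had 59.5, with 37.0 and 24.7 in the replicates, and neither thresholded list kept it. The EcR gene thus had 1 peak that passed the threshold in each replicate on its own and 1 that passed it in neither.

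usp, which encodes the partner of EcR and is the fly homologue of the vertebrate RXR receptors (FBgn0003964, X, 2038798 to 2042311, minus strand), had 4 peaks in a body of only 3.51 kb and its flanks. The strongest, at 2050279, had a signal of 422 and rank 163, and lay 7968 bp upstream of usp, 159 bp upstream of the start of moody, a receptor gene of the glia that form the blood-brain barrier. Its replicate signals were 192 and 229.7. Peak 2, at 2050763, stood 484 bp from it, 643 bp upstream of moody, with 108 and replicate signals of 67.1 and 45.5. Both thresholded lists kept both of these peaks, whose nearest start site is not that of usp. Their summits also lie within the annotated gene CG4313.

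The other 2 usp peaks were at its own promoters. Peak 3, at 2042431, was 120 bp upstream of usp-RB and equally 120 bp upstream of Actn, the alpha-actinin gene transcribed the other way, with a signal of 99.8, replicate signals of 62.7 and 39.7, and a place in both thresholded lists. Peak 4, at 2041499, was 187 bp upstream of usp-RA inside the usp gene, with 69.5, and its replicate signals of 23.5 and 43.4 placed it in the list of replicate 2 only. Its global IDR was 0.728 in replicate 1 and 0.00273 in replicate 2. The usp promoters were therefore the only member start sites with a summit kept by a replicate's own thresholded list, 1 gene of 10 in each replicate, against 11.4% of all protein-coding genes in replicate 1 and 10.5% in replicate 2. Actn shares the start region, and the summit of peak 3 also lies within the annotated gene CG4313. Which of these genes peak 3 belongs to cannot be told apart.

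The early genes had 8 conservative peaks, with signals of 46.6 to 121. Eip74EF, an ETS-domain transcription factor (FBgn0000567, 3L, 17558672 to 17619325, minus strand), had 2 intronic peaks in 60.7 kb with signals of 59.7, at 17611273, and 51.8, at 17567077. They lay 8052 and 9243 bp downstream of the nearest Eip74EF start site. The replicate signals were 30.6 and 31.0 for the first and 28.6 and 26.8 for the second, and neither thresholded list kept either.

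Eip75B, a heme-binding nuclear receptor (FBgn0000568, 3L, 17950953 to 18064696, minus strand), is the longest of the genes at 113744 bp and had 4 peaks around 7 start sites. Peak 1, at 18029793 and 3761 bp upstream of Eip75B-RG in an intron, had 121, with 85.4 in replicate 1 and 42.9 in replicate 2. Peak 2, at 18019841 and 6191 bp downstream of Eip75B-RG, had 100.3, with 60.5 and 42.7. Both thresholded lists kept both peaks.

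The other 2 Eip75B peaks were at or below 65.9. Peak 3, at 18009189 and 9368 bp upstream of Eip75B-RC, had 65.9, with 39.5 and 25. Peak 4, at 18065082 and 386 bp upstream of Eip75B-RF, was the only summit of the early genes within 500 bp of an own start site. It was the weakest of all 34 peaks at 46.6, with 29.2 and 26.8. Neither thresholded list kept peak 3 or peak 4. In no replicate was there thresholded evidence for a peak at an Eip75B start site.

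br, which encodes the Broad zinc finger proteins (FBgn0283451, X, 1575132 to 1664869, plus strand), had 2 peaks in 89.7 kb despite 9 start sites. Peak 1, at 1618877, was in an intron 3431 bp upstream of br-RS and 722 bp upstream of Mur2B, a mucin-related gene, with 71.7 and replicate signals of 27.5 and 38.3. Peak 2, at 1669379 in the downstream flank, was 82 bp upstream of CG3740, with 66.8 and replicate signals of 40.6 and 26.8. The thresholded list of replicate 2 kept the first and that of replicate 1 the second, so neither was kept by both.

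Among the orphan receptors, Hr3 and Hr4 held intronic peaks of up to 433, while Hr39 and ftz-f1 had no conservative peak above 65.0. Hr3, which acts between the early and late responses (FBgn0000448, 2R, 10203995 to 10237348, minus strand), had 3. Its peak 1, at 10220078 in an intron, was the strongest of all 34 with a signal of 433 and rank 158 of the list, 7879 bp downstream of the start of Hr3-RA, Hr3-RF and Hr3-RH, a site shared with CG46321. The replicate signals were 176 and 254. Peak 2, at 10230866 and 2909 bp upstream of the same site, had 145, with 81.1 and 62.2, and peak 3, at 10196451 in the intergenic downstream flank 3260 bp from CG34221, had 83.3, with 32.6 and 43.6. Both lists kept the first 2 and that of replicate 2 alone kept the third. The summits of peaks 1 and 2 also lie within the annotated gene CG12912, and that of peak 1 within CG46321.

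Hr4 (FBgn0264562, X, 1941940 to 2007956, plus strand) had the most peaks, 9 in 66.0 kb and its flanks, 6 of them touching the gene body. The strongest 3 lay in introns downstream of the start shared by Hr4-RC and 6 further transcripts. At 5802 bp, peak 1 had 317 and rank 248, with 169 in replicate 1 and 141 in replicate 2. At 21980 bp, peak 2 had 199, with 114 and 84.9, and at 10008 bp peak 3 had 159, with 73.8 and 85.7. All 3 were kept by both thresholded lists, and these are the only Hr4 peaks that were. Peak 4, at 2011753 in the downstream flank and 555 bp upstream of east, had 77.7, with 37.1 and 42.2, and was kept in replicate 2 only.

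The remaining 5 Hr4 peaks had signals of 52.0 to 74.1. The strongest of them, 2363 bp downstream of the first start site, was kept in replicate 2 only, and the other 4 in neither replicate. Within this tail, 1 summit lay 123 bp upstream of PIG-K, 1 lay 13 bp upstream of the long non-coding RNA gene lncRNA:CR45478 and 1 lay in the Hr4 3' UTR. Of the 34 window peaks, 4 were absent from the larger series-level set, 3 of these weak Hr4 peaks and ftz-f1 peak 1. No Hr4 summit lay within 500 bp of either Hr4 start site. The strongest ranked peak within that distance reached 22.0 in replicate 1 and 9.63 in replicate 2.

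Hr39, a relative of ftz-f1 (FBgn0261239, 2L, 21237250 to 21259675, plus strand), had only 1 conservative peak, and it was not at the gene. That peak, at 21263712 in the downstream flank, lay 221 bp upstream of mir-4974, with 65.0, replicate signals of 36.7 and 25.5, and a place in the list of replicate 1 only. The single Hr39 start site did carry a strong peak in the ranked lists. Behind the conservative list, a ranked peak at 21237014 to 21237293 had its summit 96 bp upstream of that site, a signal of 141 and a global IDR of 0.00016. In the conservative list, 864 peaks had a higher signal. In replicate 1 the ranked peak there had 47.0 at 86 bp and a global IDR of 0.00114, and in replicate 2 it had 92.6 at 113 bp and 1.00e-05.

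By its IDR this peak would pass the threshold of 0.01 in all 3 lists, yet no thresholded list holds it. It is 1 of 101 among the 3502 ranked peaks at that level behind the conservative list that were left out, with 87 of 2686 left out in replicate 1 and 114 of 2405 in replicate 2. No other such peak lay within 50 kb of it in any of the 3 lists. Per the deposited inventories, each thresholded list derives from 1 more input file than its ranked list, and what that file holds is not given in the sources used here. Why the Hr39 peak was left out was not tested. Counting it, an alternative added after the peak was seen, gives 35 window peaks and 3 regulators with a summit at an own start site.

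ftz-f1, an orphan receptor that sets the competence for later ecdysone responses (FBgn0001078, 3L, 18750607 to 18801309, minus strand), had 2 peaks in 50.7 kb with signals of 57.8, at 18789581, and 47.1, at 18772320. The first was in an intron 11728 bp downstream of ftz-f1-RB and the second 6576 bp upstream of ftz-f1-RC and ftz-f1-RD, where it falls on an exon of lncRNA:CR45939. The replicate signals were 31.4 and 27.7, then 27.6 and 25.6, and neither thresholded list kept either. In this it was like Eip74EF, and no other of the 10 genes was without a thresholded peak in both replicates.

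ImpL2 (FBgn0001257, 3L, 4224006 to 4236147, minus strand) had 5 peaks around a body of 12.1 kb. Peak 1, at 4228382 in an intron, had 354 and rank 214, with replicate signals of 173 and 172. It lay 1080 bp upstream of the start of ImpL2-RB and ImpL2-RD, a site shared with CG46460. Peak 2, at 4230517 and 3215 bp upstream of the same site, had 105, with 47.5 and 63.3. Both lists kept both peaks.

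The other 3 ImpL2 window peaks lay upstream of the gene at promoters of other genes. Peak 3, at 4239700 and 473 bp upstream of Sqor, the sulfide quinone oxidoreductase gene, had 93.7, with 54.9 and 45.9, and was kept by both lists. Peak 4, at 4240139 and 34 bp upstream of Sqor, had 67.7, with 39.7 and 24.6, and was kept in replicate 1 only. Peak 5, at 4242631 and 103 bp upstream of pav, which encodes a cytokinesis kinesin, had 57.6, with 28.4 and 30.2, and was kept in neither. No summit of the conservative list or of either replicate's thresholded list was within 500 bp of an ImpL2 start site. Ranked peaks there reached 26.8 in replicate 1 and 19.2 in replicate 2.

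Across the 10 genes, a conservative summit at an own start site was found at 2 of 10 (95% Wilson interval 5.67 to 51.0%), against 14.1% of all protein-coding genes, 17.8% of those of 20 to 50 kb and 17.6% of those of 50 kb or more. By start site, 3 of 37 annotated positions had one, both usp positions and Eip75B-RF. Weak ranked peaks were near most start sites, with at least 1 within 500 bp at 27 of 37 positions in replicate 1 and 28 of 37 in replicate 2. Over the 19630 start site positions of all protein-coding genes the shares were 69.4% and 68.3%, so nothing is read from these numbers. The strongest ranked signal there was 11.8 to 62.7 by gene in replicate 1 and 9.63 to 92.6 in replicate 2, where ftz-f1 had none. A global IDR of 0.01 or below was reached at the start sites of usp and Hr39 in both replicates and at those of no other of the 10 genes.

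**Figure D3:**
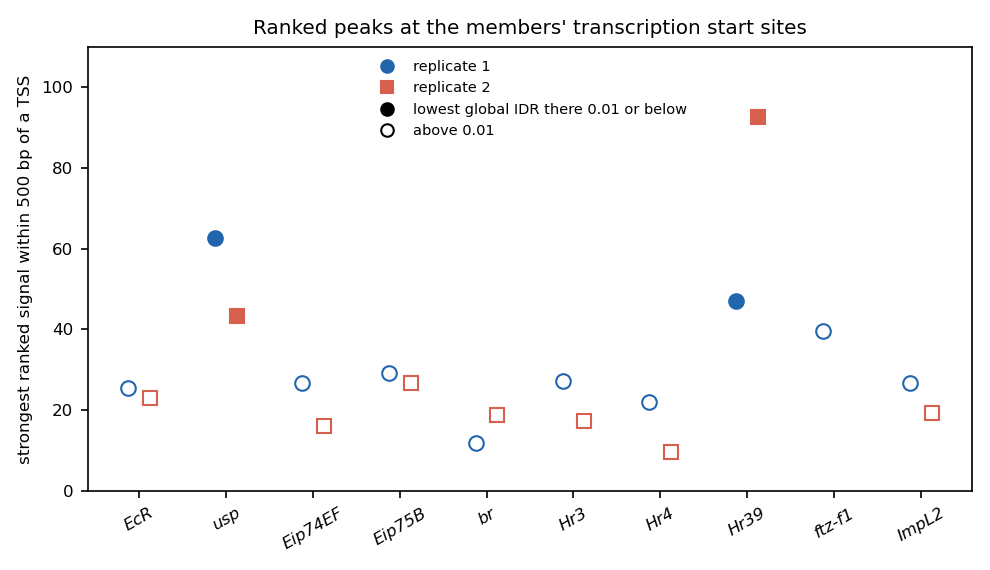
Signal of the strongest ranked peak within 500 bp of any start site of each regulator (y axis, linear) in replicate 1 (circles) and replicate 2 (squares), filled where the lowest global IDR there was 0.01 or below. usp and Hr39 are the filled genes, with 62.7 and 43.4 for usp and 47.0 and 92.6 for Hr39, and ftz-f1 has no ranked peak there in replicate 2. Levels are not compared between the replicates.

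The second series-level set added start site peaks at EcR and Eip74EF. It held 39 peaks in the windows, 53.2 per Mb against 31.9 over all protein-coding windows, and a peak in all 10, which 57.2% of all protein-coding genes had. Its additions included a summit 207 bp upstream of EcR-RD and EcR-RE with 47.8, and one 188 bp upstream of Eip74EF-RA, Eip74EF-RC and Eip74EF-RE with 42.7, so that 4 of 10 genes had a summit at an own start site there, against 16.2% of all protein-coding genes. It also added EcR introns at 60.6, 1150 bp upstream of EcR-RB and EcR-RC, and at 53.0, Eip75B introns at 66.2 and 46.7, and Hr4 introns at 78.6 and 58.7. In the ranked list behind the conservative set these additions had global IDRs between 0.0107 and 0.221, outside its threshold. The last addition, at 48.8, was at CG8671 in the Hr39 window. The thresholded lists of the replicates added an EcR intron peak at 48.3 and an Eip75B one at 43.5 in replicate 1 and an Hr4 one at 52.3 in replicate 2. The Eip75B and Hr4 peaks are at the same sites as the additions of 66.2 and 78.6 in the second set.

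The replicates gave the strong window peaks alike and the weak ones unevenly. All 34 conservative peaks overlapped a ranked peak in each replicate, as did most peaks of the list, so nothing is read from this count. Both thresholded lists kept 14 of the 34 (41.2%, Wilson 26.4 to 57.8) against 48.6% of all conservative peaks, that of replicate 1 alone 3, that of replicate 2 alone 5, and neither 12 (35.3%, 21.5 to 52.1) against 24.0%. The 14 kept by both were exactly the 14 with a signal above the list median of 90.9, and none of the 20 weaker ones was kept by both. Over the whole list the shares kept by both were 86.3% of the 1699 peaks above the median and 10.8% of the 1698 others. Signal and IDR both come from the same reads, so this division describes the lists. Over the 34 peaks, the ranked signals of the replicates had a Spearman rho of 0.635 and a Pearson r of 0.885 on the log10 scale. The peaks share the 2 libraries and the control. They were also kept by their IDR, so some agreement between the replicates is built into the selection. These values therefore describe the kept peaks only.

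**Figure D4:**
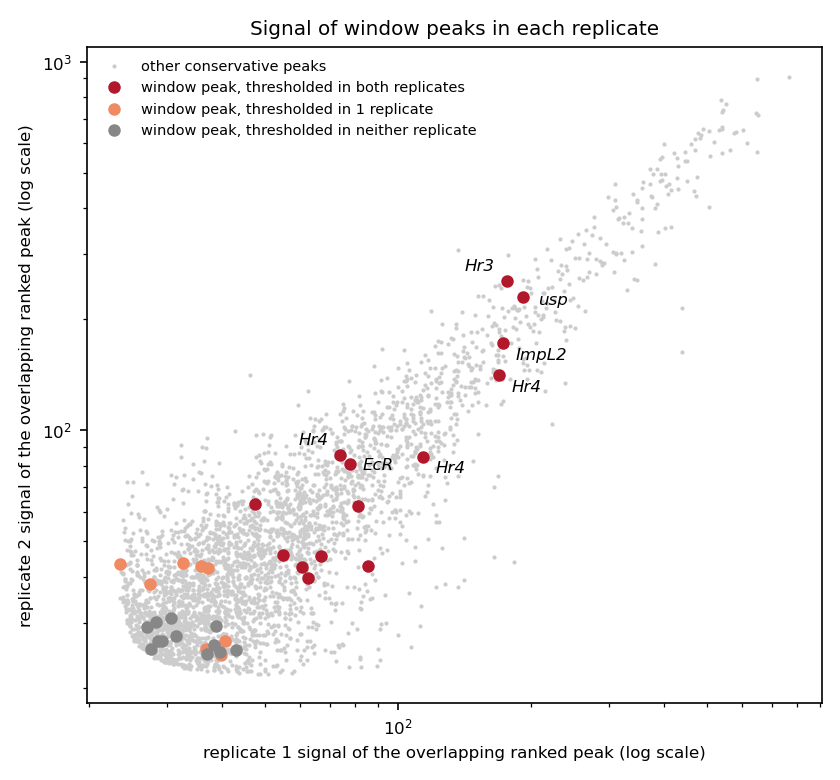
Signal of the ranked peak that overlaps each conservative peak in replicate 1 (x axis) and replicate 2 (y axis), both on log scales, for all conservative peaks (grey) and the 34 window peaks (coloured by the number of replicates whose thresholded list kept them). Peaks with a conservative signal above 150 are labelled by gene. Hr3 peak 1 (176 and 254), usp peak 1 (192 and 229.7), ImpL2 peak 1 (173 and 172) and Hr4 peak 1 (169 and 141) stand clear of the others, while the 12 kept by neither sit in the low corner.

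In strength the window peaks were spread over the lower and upper parts of the list. Their median signal was 72.9, from 46.6 to 433, against a list median of 90.9 with quartiles of 66.9 and 142. Of the 34, 14 were above the list median and 8 above its upper quartile. The 20 intronic window peaks had a median of 103 against 87.0 for all intronic peaks. Of these 20, 11 were kept by both replicates, beside 48.6% of all conservative peaks of any kind. The 11 promoter window peaks had a median of 66.8 against 99.5 for all promoter peaks. The intronic peaks were the stronger kind here and the promoter peaks the weaker, the opposite order to the whole list, a description that was not tested. Median width was 280 bp in both.

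The ranked lists show the same windows at low strength. Replicate 1 had 522 ranked peaks in the 10 windows, 7.12 per 10 kb against 5.99 over the 7 chromosomes, and replicate 2 had 555, 7.57 against 7.79. By gene they ran from 21 in Hr39 to 92 in Eip75B in replicate 1, and from 19 in ftz-f1 to 99 in Eip75B in replicate 2. ftz-f1 differed most between the replicates, with 60 and 19. Median ranked signal in the windows was 14.4 against 12.9 for the list in replicate 1 and 11.1 against 11.2 in replicate 2. The share at a global IDR of 0.01 or below was 3.83% (20 peaks) against 3.25% in replicate 1 and 3.78% (21 peaks) against 2.18% in replicate 2. At 0.05 or below it was 7.28% against 4.72% and 5.23% against 2.93%. At 0.01 or below the share in replicate 1 was close to that of the list. All these shares rest on few peaks, and no test was made of them.

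Other genes of the hormone pathway were described from a list of 62 symbols, of which 58 matched 1 gene each. Of these, 33 (56.9%) had a conservative peak in the window, beside 52.7% of all protein-coding genes, and 8 had a summit within 500 bp of an own start site, which 14.1% of all genes had. Among 13 genes of hormone synthesis and breakdown, 6 had a window peak and none an own promoter summit; the strongest peak was 169 in the window of dib, a cytochrome P450 of ecdysone synthesis, nearest to wit. Among 9 genes of transport and co-regulation, 6 had a window peak and 3 an own promoter summit. These were E23, an ABC transporter, with 261, gce, a juvenile hormone receptor, with 157 at 499 bp, and Utx, a histone demethylase, with 153, all kept by both replicates. A start site of asRNA:CR44429 lay at least as near to the gce summit. The strongest peak in that group was 412 in the window of Smr, a co-repressor, nearest to lncRNA:CR44619.

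Of 11 other nuclear receptors, 8 had a window peak and 3 an own promoter summit. Hr96 had 152 and was kept by both replicates, ERR had 87.3 and was kept in replicate 2, and Hr78 had 70.9 and was kept in replicate 1. For the ERR summit, a start site of Atg18a lay at least as near. The strongest peak of that group was 155 in the window of Hr51, nearest to unc-5. Of 15 other hormone-induced genes, 10 had a window peak, with own promoter summits at vri and hid. The summit at vri, a basic leucine zipper repressor, had 101 and was kept by both replicates. That at hid, an activator of cell death, had 67.7 and was kept in replicate 2 only. The strongest peak of these hormone-induced genes was 302 in the window of crol, nearest to CycY. Of 10 glue, fat body and cuticle targets, 3 had a window peak and none an own promoter summit, with the strongest, 331, in the window of the cuticle gene Edg78E and nearest to CG11309. These target genes are short, with a median body of 0.851 kb against 13.9 kb for the transport and co-regulator group, and the part of length in the shares was not tested.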

How the data were processed

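The deposited files are peak lists from ChIP-seq of CG1024-eGFP in 2 biological replicates of whole embryos, on build dm6 with chromatin sonicated to 200 to 800 bp, per the labels. Per the inventories that came with them, the lists of a replicate were made from the alignments of that replicate and 1 shared control, and series-level lists used both sets of alignments. The sources used here name neither the aligner nor the peak caller. The signal of each peak is the authors' value on an unstated scale. The score column was scaled from the IDR by the authors. The deposited ranked lists also give the IDR as −log10. The deposited p column holds -1 in every row and was not used. All 8 lists were read, and depth is unknown.

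The 10 genes and all lists were chosen with earlier results of these data known. A peak counted in a window where any base fell inside it, and distances run from the summit to annotated start sites (Ensembl release 115, same build) on the 7 main chromosomes. A promoter summit lies within 500 bp of a start site. Where several ranked peaks of a replicate overlapped a conservative peak, the highest signal was taken. All 10 genes were named, pathway genes where a summit lay at an own start site or the peak was the strongest of their group, and other genes where their start site was nearest to a window peak. Some genes that span a window summit were also named. Hr4 peaks beyond the strongest 4 were summarised. The symbols phm, EcI, DOR and let-7-C did not match 1 gene. Sequences came from the RefSeq FASTA of dm6, and none was printed for EcR and Hr3 or from a UTR. Counting functions were tested on simulated data. Python 3.11.15 was used with numpy 2.4.6 and pandas 2.3.3, intervals came from scipy 1.17.1, and figures from matplotlib 3.10.9. Recomputed settings comprised the second series-level set, single replicates, stricter lists, other flanks and start site windows, and other definitions of overlap.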

Additional observations from a re-analysis of the deposited data

How the results depend on the processing

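With 1 replicate left out, so that the thresholded list of the other alone was used, the windows held 19 to 20 peaks in place of 34, or 25.9 to 27.3 per Mb in place of 46.4, in 7 to 8 of the 10 genes. A single gene kept a summit at an own start site (1 in each replicate, usp in both), and the median signal was 49.1 to 67.1 against 72.9, on the scales of other lists. Keeping only peaks above the list's median signal left 14 peaks in 6 genes, 19.1 per Mb, 1 gene with an own start site summit and a median of 152. Keeping only a global IDR of 0.001 or below gave the same values, 14, 6, 19.1, 1 and 152. The gene body alone held 22 peaks. A start site window of 200 bp left 1 gene, since Eip75B is 386 bp away, and the other series-level set gave 4. Counting ranked peaks that the conservative list leaves out, added after the Hr39 peak was seen, gave 10 genes, 35 peaks, 3 genes with an own start site summit and 47.7 per Mb. The number of peaks kept by both replicates stayed between 11 and 16 under every alternative run for it. Both stricter settings leave exactly the 14 peaks kept by both replicates, so they could not change that number. Of all recomputed values, 37 stayed within 1.5 times the count reported, or within its interval for densities and medians, and 20 did not. These totals include values fixed by the setting, such as the higher median where only peaks above the list's median were kept. Counts of 1 to 4 genes move past that factor with a change of 1 or 2 genes. No paired analysis was possible because there is 1 group and no groups are compared.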
